A study of Mus musculus with 8 samples.

Results

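The 35 genes described here take up, activate and oxidise fatty acids, and H3K27Ac at them was compared between ventricles of control and *Arid1a cKO* mice at postnatal day 7. Their peaks were chosen by position alone. A peak counted as theirs when its centre lay nearest to a curated RefSeq transcription start of a member in mm10, which gave 100 of 45980 peaks with a nearest gene. Of these, 34 covered a transcription start of their gene and are called promoter peaks, and 66 did not and are called other peaks. In all, 32 of the 35 genes were nearest to a peak, 31 had a promoter peak and 18 had other peaks.

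Acetylation of lysine 27 on histone H3 (H3K27Ac) marks active promoters and enhancers. ARID1A is a DNA-binding subunit of the SWI/SNF chromatin remodelling complex, and the comparison asks how H3K27Ac differs when cardiomyocytes lack it. The 2 controls were Arid1a f/f animals, with floxed alleles and no Cre, and the 2 mutants were aMHC-Cre;Arid1a f/f littermates. The transgene acts in cardiomyocytes, so the other cells of the ventricle kept intact alleles, and no control carried Cre alone. Each of the 4 H3K27Ac libraries had an input library, for 8 libraries in all.

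The deposited table gives 1 mean per group and peak, in normalized reads on a log2 scale. It holds 0 columns of single samples. No spread between replicates, interval or test could therefore be computed, and the depth of each library is unknown. Every value below is the authors' group mean, and a difference is the *Arid1a cKO* mean minus the control mean on the log2 scale. Because no test is possible, "at least 2-fold" describes the size of a difference and not its significance.

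Fatty acids enter the cardiomyocyte with the help of surface transporters, are bound in the cytosol, and are joined to coenzyme A. The carnitine shuttle carries them into mitochondria, where repeated rounds of dehydrogenation, hydration, a further oxidation and thiolysis shorten the chain. The electrons pass through electron transfer flavoprotein to the respiratory chain. The heart turns from glucose to fatty acids as its main fuel after birth, under nuclear receptors that include the PPAR and estrogen-related receptor (ESRR) families and their coactivator PGC-1.

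DNA sequence of 4 peaks that were at least 2-fold lower in *Arid1a cKO* is shown first. They are the strongest of the 11 such peaks, at *Acsl1*, and the intronic ones whose central window holds no masked base. Each is the central 300 bases of its peak on the plus strand of mm10, and none overlaps an annotated exon. The *Slc27a1*, *Acsl4* and *Hadh* windows lie in introns of those genes and the *Acsl1* window lies 56.8 kb upstream of its start. The *Acsl1* window is 41.0% repeat-masked and holds a run of short tandem repeats. Lower case throughout means that no searched motif was found.
Acsl1 chr8:46414039-46414338: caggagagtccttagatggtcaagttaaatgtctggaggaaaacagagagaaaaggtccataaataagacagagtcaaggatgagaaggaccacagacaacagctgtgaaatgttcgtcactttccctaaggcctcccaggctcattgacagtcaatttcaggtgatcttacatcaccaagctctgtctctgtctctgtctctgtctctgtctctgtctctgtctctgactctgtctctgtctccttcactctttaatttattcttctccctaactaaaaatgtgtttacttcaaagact
Slc27a1 chr8:71573106-71573405: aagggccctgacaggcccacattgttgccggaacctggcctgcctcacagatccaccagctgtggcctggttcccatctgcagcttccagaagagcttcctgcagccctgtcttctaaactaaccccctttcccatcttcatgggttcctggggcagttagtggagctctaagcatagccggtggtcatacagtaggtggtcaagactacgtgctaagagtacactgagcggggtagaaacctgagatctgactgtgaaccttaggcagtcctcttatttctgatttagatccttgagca
Acsl4 chrX:142359276-142359575: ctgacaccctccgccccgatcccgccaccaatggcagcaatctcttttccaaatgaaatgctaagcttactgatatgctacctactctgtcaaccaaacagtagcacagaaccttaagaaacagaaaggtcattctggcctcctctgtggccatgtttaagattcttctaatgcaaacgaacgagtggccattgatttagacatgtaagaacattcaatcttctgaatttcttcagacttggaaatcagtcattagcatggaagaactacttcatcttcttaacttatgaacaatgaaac
Hadh chr3:131251293-131251592: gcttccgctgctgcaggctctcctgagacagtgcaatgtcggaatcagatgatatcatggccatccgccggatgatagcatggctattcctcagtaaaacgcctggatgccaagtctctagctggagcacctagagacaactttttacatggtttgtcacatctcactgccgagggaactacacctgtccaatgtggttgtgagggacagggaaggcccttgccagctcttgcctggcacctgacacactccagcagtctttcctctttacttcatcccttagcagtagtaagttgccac

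All peaks were searched on both strands for the letters of 3 motifs. They were TCAAGGTCA, a site bound by ESRR receptors, CTAAAAATA, a form of the MEF2 site, and a direct repeat of AGGTCA with 1 base between the copies (DR1), the element of PPAR with its partner RXR. The ESRR letters end in AGGTCA, so an ESRR match and a DR1 match can overlap. The central 300 bases of 0 of the 100 member peaks held any of them, where over all peaks 1.08% held ESRR, 1.54% MEF2 and 0.0652% DR1. Over whole peaks, 12 of the 100 held ESRR letters, with 15 matches or 39.1 per Mb beside 33.9 per Mb over all peaks. MEF2 letters matched 13 times in 9 member peaks, at 33.9 per Mb beside 33.1, and DR1 letters matched 2 times in 2 peaks, at 5.22 per Mb beside 2.33. The density of these letters at the members was thus close to that of all peaks for ESRR and MEF2, and rested on 2 matches for DR1. None of the 11 peaks at least 2-fold lower held a match. Of all 4878 peaks at least 2-fold lower, 8.43% held ESRR, 9.02% MEF2 and 0.472% DR1 letters, so 11 peaks are too few to read anything from that.

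All 6 ESRR and both DR1 matches outside masked repeats, and of the 9 such MEF2 matches the one nearest to a start, are printed with 20 flanking bases on the strand of the match. Capitals mark the matching letters. In masked repeats lay 9 of the 15 ESRR matches and 4 of the 13 MEF2 matches. The *Fabp3* sites lie 1.89 and 1.21 kb upstream of the start, the *Cpt1b* site 221 bp upstream, the *Cpt2* site 3.05 kb into the gene, the *Hadh* site 25.6 kb into the gene, the *Mlycd* site 0.924 kb into the gene, the *Acacb* site 10.2 kb into the gene, the *Cd36* site 9.19 kb upstream of the nearest start and the *Lpl* site 97.3 kb downstream of the start. A match of letters does not show that a factor binds there.
Fabp3 ESRR chr4:130306821-130306869, minus strand: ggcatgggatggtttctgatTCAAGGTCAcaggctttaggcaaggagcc
Fabp3 ESRR chr4:130307502-130307550, plus strand: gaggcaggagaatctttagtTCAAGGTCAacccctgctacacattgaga
Cpt1b MEF2 chr15:89426059-89426107, plus strand: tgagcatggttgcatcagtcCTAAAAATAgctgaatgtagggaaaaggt
Cpt2 ESRR chr4:107920519-107920567, minus strand: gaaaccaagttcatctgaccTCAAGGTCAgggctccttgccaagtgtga
Hadh ESRR chr3:131246486-131246534, plus strand: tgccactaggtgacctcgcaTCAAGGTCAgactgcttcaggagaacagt
Mlycd ESRR chr8:119395794-119395842, plus strand: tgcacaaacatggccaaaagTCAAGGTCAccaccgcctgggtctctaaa
Acacb ESRR chr5:114175651-114175699, plus strand: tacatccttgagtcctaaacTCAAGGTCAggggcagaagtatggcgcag
Cd36 DR1 chr5:17898120-17898172, plus strand: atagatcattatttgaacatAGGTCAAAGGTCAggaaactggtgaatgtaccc
Lpl DR1 chr8:68977787-68977839, plus strand: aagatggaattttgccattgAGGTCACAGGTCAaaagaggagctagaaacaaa

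The promoter table of RefSeq held 29 of the members. In the 250 bases upstream of the start, ESRR letters were present in 0.387%, MEF2 letters in 0.469% and DR1 letters in 0.0335% of 32817 promoters. Among the 29 members, *Acsl6* held an ESRR match there at a start and a MEF2 match at a different start. None of the other members in the table held any. The shares are of promoters, whereas members are counted as genes, some with several promoters. *Cpt1b*, whose MEF2 letters 221 bp upstream are shown above, is not among the 29.

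Member promoters carried strong and broad H3K27Ac in control ventricles. Their median was 528 normalized reads beside 151 over all 12022 promoter peaks, and their median width was 5.35 kb beside 2.21 kb. Of the 34, 16 were among the strongest 10% of all promoter peaks in control (588 reads or more), and 15 were among the widest 10% (5.89 kb or more). Reads per kb allow levels of different genes to be compared, and *Cpt1a* (167 reads per kb) and *Lpl* (160) were highest in control ventricles. *Acot2*, *Acadl*, *Cpt1b*, *Mlycd* and *Fabp3* followed at 131 to 153 reads per kb. *Slc25a20*, which encodes the carnitine-acylcarnitine carrier, was lowest at 46.6, followed by *Acsl4* at 49.6. Without replicate values, neighbours in this order cannot be told apart.

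No member promoter differed by 2-fold. The 34 differences ran from -0.27 to 0.40 on the log2 scale, with a median of -0.07. At least 2-fold lower were 0 of 34, where 1.7% of all promoter peaks were, and at least 2-fold higher were 0 of 34, beside 1.16%. The direction was less even than over all promoters. The mean was lower in *Arid1a cKO* at 26 of 34 member promoters (76.5%), equal at 1 and higher at 7, while 48.0% of all promoter peaks were lower. Because strong promoters leaned downwards in general, the same count was made among the 6727 promoter peaks that belong to the strongest 25% of all peaks by concentration, the log2 mean over both groups. There 54.5% of all promoter peaks were lower, beside 25 of 31 member peaks (80.6%), and the median difference was -0.02 over all and -0.11 over the members. The members are stronger than these promoters too, with a median of 648 control reads beside 288, and the lean grew with strength. Among promoter peaks in the strongest 10% of all peaks, 61.6% of 3134 were lower, with a median of -0.05. The members there were lower at 20 of 24, with a median of -0.12, and had a median of 806 control reads beside 498. These are small differences, of which no single one can be set against replicate error.

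**Figure D1:**
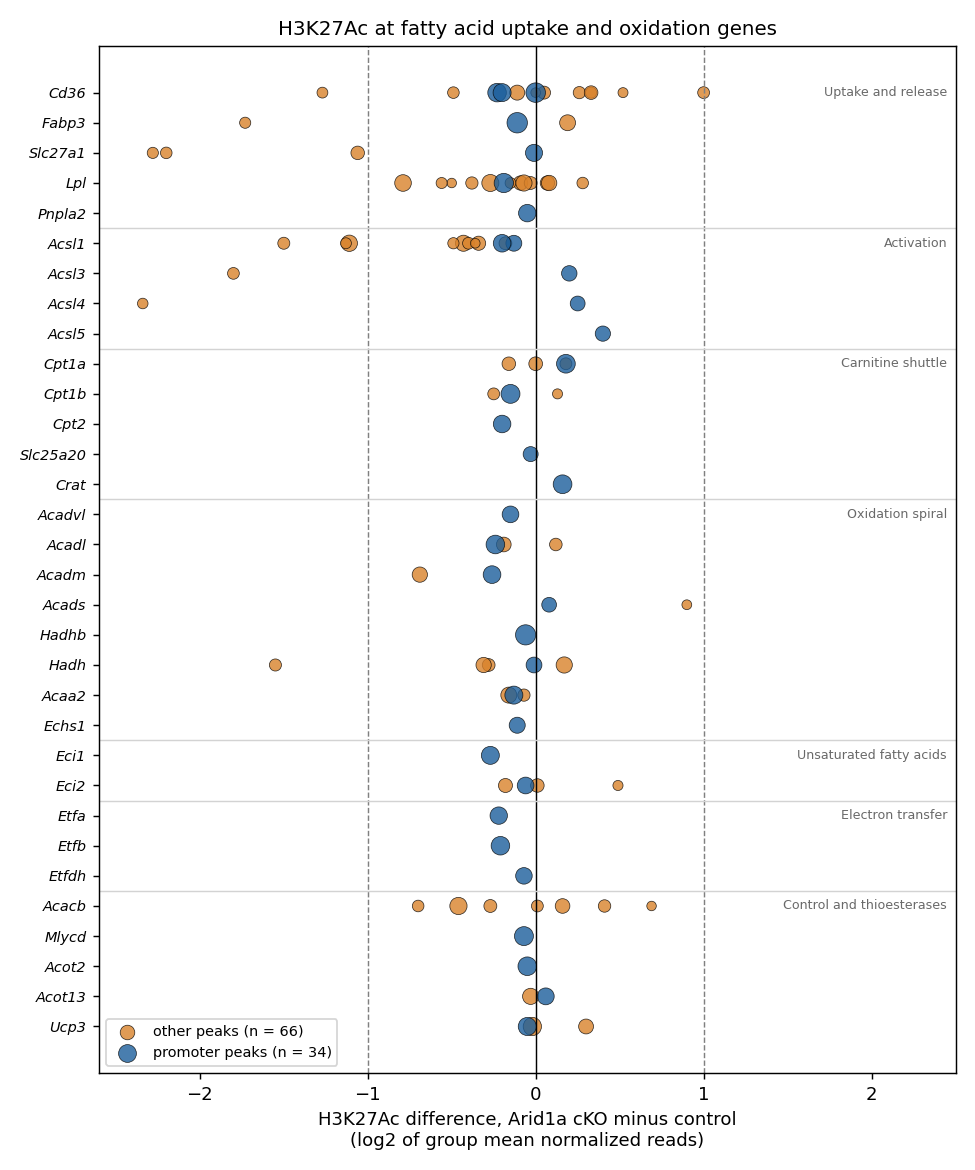
Difference in H3K27Ac between *Arid1a cKO* and control (log2 of group mean normalized reads, horizontal axis) for each of the 100 peaks of 32 genes, grouped by role. Blue points are promoter peaks and orange points other peaks, larger points had more control reads, and dashed lines mark 2-fold. Promoter peaks sit between -0.27 and 0.40, and the 11 points at or beyond 2-fold lower are all other peaks.

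H3K27Ac of cell type markers was read in the same way, since the chromatin came from whole ventricle. Promoters of 8 of 10 cardiomyocyte markers had a peak, with a median difference of -0.23. Of these, 7 of the 8 were lower in *Arid1a cKO*, beside 48.0% of all promoter peaks. *Tnnt2*, cardiac troponin T, was 1361 in control and 1010 reads in *Arid1a cKO*, and *Myh6*, the gene whose promoter drives the Cre transgene, was 3591 and 3929. Only the mutants carry that transgene, and whether its copies of the promoter add reads to the *Myh6* peak was not tested. *Tnni3* and *Actc1* had no promoter peak assigned to them. Promoters of all 8 fibroblast markers were higher, with a median of 0.42 and a range of 0.17 to 0.71. Medians were 0.03 over 7 endothelial and 0.19 over 5 mural promoters. The mural promoters were split, with 3 higher and 2 lower, from -0.07 to 1.09. Highest were the weak *Tagln* promoter (15.6 reads in control and 33.1 in *Arid1a cKO*) and *Acta2* (322 and 596). Summed over their promoters, cardiomyocyte markers had 17201 reads in control and 15479 in *Arid1a cKO*, and fibroblast markers 1826 and 2555. Of 6 macrophage and leukocyte markers, only *C1qa* had a promoter peak, at 29.9 and 33.6 reads. Of 4 adipocyte markers, *Adipoq*, *Plin1* and *Cidec* were nearest to no peak and *Lep* to 2. The part of cell composition in the member differences was not tested. In bulk tissue, fewer cells of a type and less mark per cell cannot be told apart. The *Arid1a* promoter itself had 1607 reads in control and 1663 in *Arid1a cKO*, but this mark does not check a floxed deletion.

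**Figure D2:**
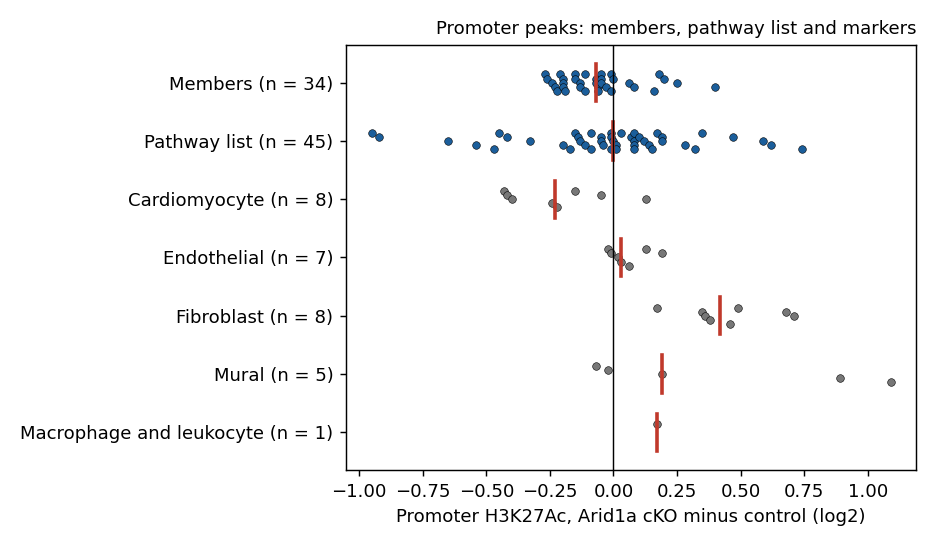
Promoter difference between *Arid1a cKO* and control (log2, horizontal axis) for the members, the wider pathway list and cell type markers. Each point is 1 promoter peak, vertical scatter only separates points, and red lines mark medians. The members (median -0.07) lie between the cardiomyocyte markers (-0.23) and the pathway list (0.00), and all 8 fibroblast promoters are above 0. Promoter strength has the same order, with median control reads of 1722 (cardiomyocyte markers), 528 (members) and 177 (pathway list). Strong promoters leaned downwards in general, and the medians are not matched for strength.

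The uptake genes had the widest promoter peaks of any role, with a median of 11 kb, and held 27 of the 66 other peaks. *Fabp3*, the cytosolic fatty acid binding protein of heart, had a promoter peak of 22.6 kb with 2957 reads in control and 2740 in *Arid1a cKO* (-0.11). *Lpl*, lipoprotein lipase, releases fatty acids from circulating triglyceride, and its promoter had 1428 and 1252 reads (-0.19). *Cd36*, a surface transporter of long-chain fatty acids, has 3 transcription starts under separate peaks of 917 and 781, 653 and 568, and 1675 and 1675 reads. The strongest of these did not differ between the means and the other two were lower by 0.23 and 0.20. *Slc27a1*, a fatty acid transport protein, had 383 and 380 promoter reads, and *Pnpla2*, the lipase that frees fatty acids from stored fat, had 478 and 461. Of the 7 promoter peaks of this group, 6 were lower in *Arid1a cKO* and 1 was equal, and 3 of the 7 belong to *Cd36*. Lower were 48.0% of all promoter peaks and 61.6% of those in the strongest 10% of all peaks.

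The acyl-CoA synthetases, which join fatty acids to coenzyme A, were the only group with a median promoter difference above 0 (0.20). Of their 5 promoter peaks 3 were higher, and these were the weakest of the 5 in control. The summed reads of the 5 were 1100 in both control and *Arid1a cKO*. *Acsl1*, the main form of adult heart, had 2 promoter peaks that were lower, from 193 to 176 reads (-0.13) and from 519 to 452 (-0.20). *Acsl3* was higher, from 149 to 171 reads (0.20), as was *Acsl4*, from 106 to 126 (0.25). *Acsl5* had the largest promoter difference of all members in either direction, from 133 to 175 reads (0.40). *Acsl6* was nearest to no peak.

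The carnitine shuttle was split between its enzymes. *Cpt1b*, the muscle form of the outer membrane transferase, was lower, at 1152 and 1038 reads (-0.15). That peak covers the *Cpt1b* start but is centred 1.89 kb upstream of it, in an intron of *Chkb* and *Gm44502*. *Cpt1a*, the form of liver and fetal heart, was higher, at 1010 and 1144 (0.18). *Crat*, which moves acetyl groups between carnitine and coenzyme A, was also higher, at 1017 and 1136 (0.16). *Cpt2*, the inner membrane transferase, had 501 and 437 reads (-0.20), and *Slc25a20* had 116 and 114 (-0.03). The median over the 5 promoters was -0.03.

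In the mitochondrial oxidation spiral, 7 of 8 promoter peaks were lower, with a median of -0.12. The chain-length specific dehydrogenases carry out the first step. *Acadm* (medium chain) had 537 reads in control and 449 in *Arid1a cKO* (-0.26), and *Acadl* (long chain) had 942 and 798 (-0.24). *Acadvl* (very long chain) had 300 and 271 (-0.15), whereas *Acads* (short chain) had 99.7 and 105 (0.08). For the later steps, *Echs1*, the enoyl-CoA hydratase, had 208 and 193 reads (-0.11), and *Acaa2*, a thiolase, had 657 and 600 (-0.13). *Hadh*, the short-chain hydroxyacyl-CoA dehydrogenase, had 181 and 180 (-0.01).

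*Hadha* and *Hadhb* encode the subunits of the trifunctional protein and start next to each other in opposite directions. Both starts lie within 1 domain of 26.2 kb (chr5:30147976-30174163), the widest of the member peaks, with 2539 and 2435 reads (-0.06). Its centre is nearer to *Hadhb*, so *Hadha* has no peak of its own in the count.

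The enzymes around the spiral were lower in most cases. *Eci1*, an isomerase needed for unsaturated chains, had the lowest promoter difference of all members, with 648 and 537 reads (-0.27), and *Eci2* had 309 and 296 (-0.06). The start of *Decr1*, a dienoyl-CoA reductase, was covered by a peak nearest to *Mir6400*, at 662 and 704 reads (0.09), which is not counted among the 100. All 3 electron transfer promoters were lower, where 48.0% of all promoter peaks were, and 3 are too few to read as a result about the role. *Etfa* had 455 and 391 reads (-0.22), *Etfb* had 923 and 798 (-0.21), and *Etfdh*, which passes the electrons to ubiquinone, had 278 and 265 (-0.07).

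Among genes that control or bypass oxidation, promoter differences ran from -0.07 to 0.06. *Acacb* makes malonyl-CoA, the inhibitor of carnitine palmitoyltransferase, and *Mlycd* breaks it down. *Mlycd* had 1168 and 1113 promoter reads (-0.07), and no peak covered the start of *Acacb*. *Acot2*, a mitochondrial thioesterase, had 962 and 929 reads (-0.05), *Acot13* had 333 and 347 (0.06), and *Ucp3*, an inner membrane carrier, had 695 and 671 (-0.05).

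Larger differences were found away from promoters. The 66 other peaks, of which 39 were centred in introns and 25 between genes, had a median control level of 31.2 reads and a median difference of -0.16. Over all 33958 other peaks the median difference was 0.02. At least 2-fold lower were 11 of 66 (16.7%), where 13.8% of all other peaks were, and 1 of 66 was at least 2-fold higher, where 5.78% were. Counted over promoter and other peaks together, 11 of 100 were lower beside 10.6% of all peaks, and 1 of 100 was higher beside 4.57%. The share of lower peaks at the members was thus close to that of the whole table, and the count is no result about these genes as a group.

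Differences spread more widely among weak peaks, and most of the lower peaks were weak. When all peaks were ordered by concentration and cut into 10 equal groups, in the weakest (median 8.4 reads) differences ran from -2.6 to 1.81 between the 5th and 95th percentiles, and in the strongest (median 471 reads) from -0.57 to 0.26. In 4 equal groups, from weakest to strongest, 9 of 23, 1 of 17, 0 of 17 and 1 of 43 member peaks were at least 2-fold lower. Over all peaks those shares were 16.6%, 14.0%, 9.13% and 2.75%. The 11 lower peaks had a median control level of 19.7 reads. Without the weakest 25% of peaks, 2 of the 11 remained, 1 of *Acsl1* and 1 of *Slc27a1*. Between the smallest difference past 2-fold, -1.06 at *Slc27a1*, and the next, -0.79 at *Lpl*, no member peak lay.

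**Figure D3:**
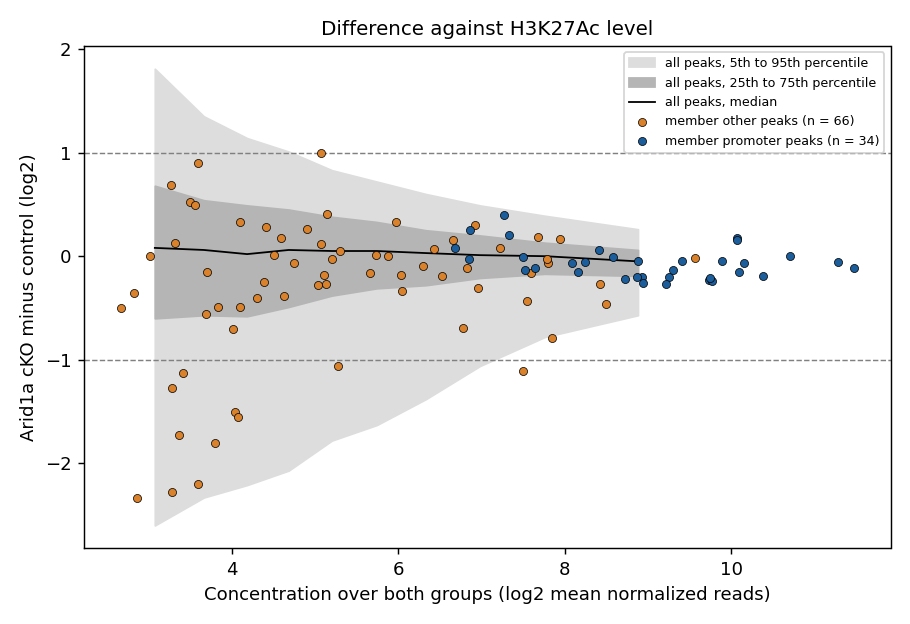
Difference between *Arid1a cKO* and control (log2, vertical axis) against concentration over both groups (log2 mean normalized reads, horizontal axis) for the 34 promoter and 66 other member peaks. Grey bands give the 5th to 95th and 25th to 75th percentiles of all 45980 peaks in 10 equal groups by concentration, the black line their median, and dashed lines 2-fold. Most member peaks beyond 2-fold are weak ones inside the wide left part of the band, and the strong *Acsl1* peak at -1.11 lies below it.

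*Acsl1* had the strongest of the lower peaks. At chr8:46412310-46416069, in intergenic sequence 56.8 kb upstream of the start, the mean was 247 reads in control and 115 in *Arid1a cKO* (-1.11). A weaker peak 49.3 kb upstream (chr8:46420945-46422442) had 24.3 and 8.57 reads (-1.50). An intronic peak 11.5 kb past the nearer start (chr8:46502034-46502801) had 14.5 and 6.63 reads (-1.13). All 9 other peaks of the gene were lower in *Arid1a cKO*, among them a strong intronic peak with 214 and 159 reads (-0.43). With the promoters, the summed reads of *Acsl1* were 1369 in control and 1042 in *Arid1a cKO*, and this was the lowest summed difference of the 32 genes (-0.39). Over the peaks that cover a start alone, *Acsl1* differed by -0.18 and *Eci1* (-0.27) was lower.

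At *Slc27a1*, every peak but the promoter was at least 2-fold lower. An intronic peak 2.66 kb past the nearest start (chr8:71572866-71573647) had 16.1 reads in control and 3.32 in *Arid1a cKO* (-2.28). The next, at 4.92 kb (chr8:71574729-71576305), had 52.3 and 25.1 reads (-1.06). The peak at 8.86 kb, centred on a coding exon (chr8:71579043-71579856), had 19.7 and 4.29 reads (-2.20). The promoter peak held 81.3% of the gene's control reads and was alike in the means (-0.01), so the summed difference was -0.19. The central window of the peak at 4.92 kb is 96.0% masked tandem repeat.

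The remaining lower peaks stood alone at their genes. The *Acsl4* peak, in an intron 31.1 kb past the start (chrX:142359011-142359841), had 12 reads in control and 2.38 in *Arid1a cKO*, under the floor of 3 reads over the group, and was at least 4.01-fold lower. The *Acsl3* peak 46.5 kb upstream (chr1:78610722-78611908) had 21.6 and 6.19 reads (-1.80). At these genes the promoter was higher while the only other peak was lower, and their summed reads differed by 0.06 (*Acsl3*) and 0.12 (*Acsl4*).

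The *Fabp3* peak lies 12.9 kb upstream of the start, just outside the promoter domain (chr4:130295271-130296394), and had 15.8 reads in control and 4.76 in *Arid1a cKO* (-1.73). The intronic *Hadh* peak (chr3:131250860-131252027) had 25.1 and 8.57 reads (-1.55). The other intronic peaks of *Hadh* had 231 and 260 reads (0.17), 137 and 111 (-0.31) and 35.8 and 29.4 (-0.28). *Cd36* held both directions. A peak 88.8 kb downstream of the nearest start (chr5:17746726-17747480) had 13.7 and 5.7 reads (-1.27), and a peak 15.6 kb upstream (chr5:17903546-17905504) had 22.3 and 44.6 reads, the only member peak at least 2-fold higher. Of the 11 lower peaks, 2 were centred within 5 kb of a start and 9 beyond.

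**Figure D4:**
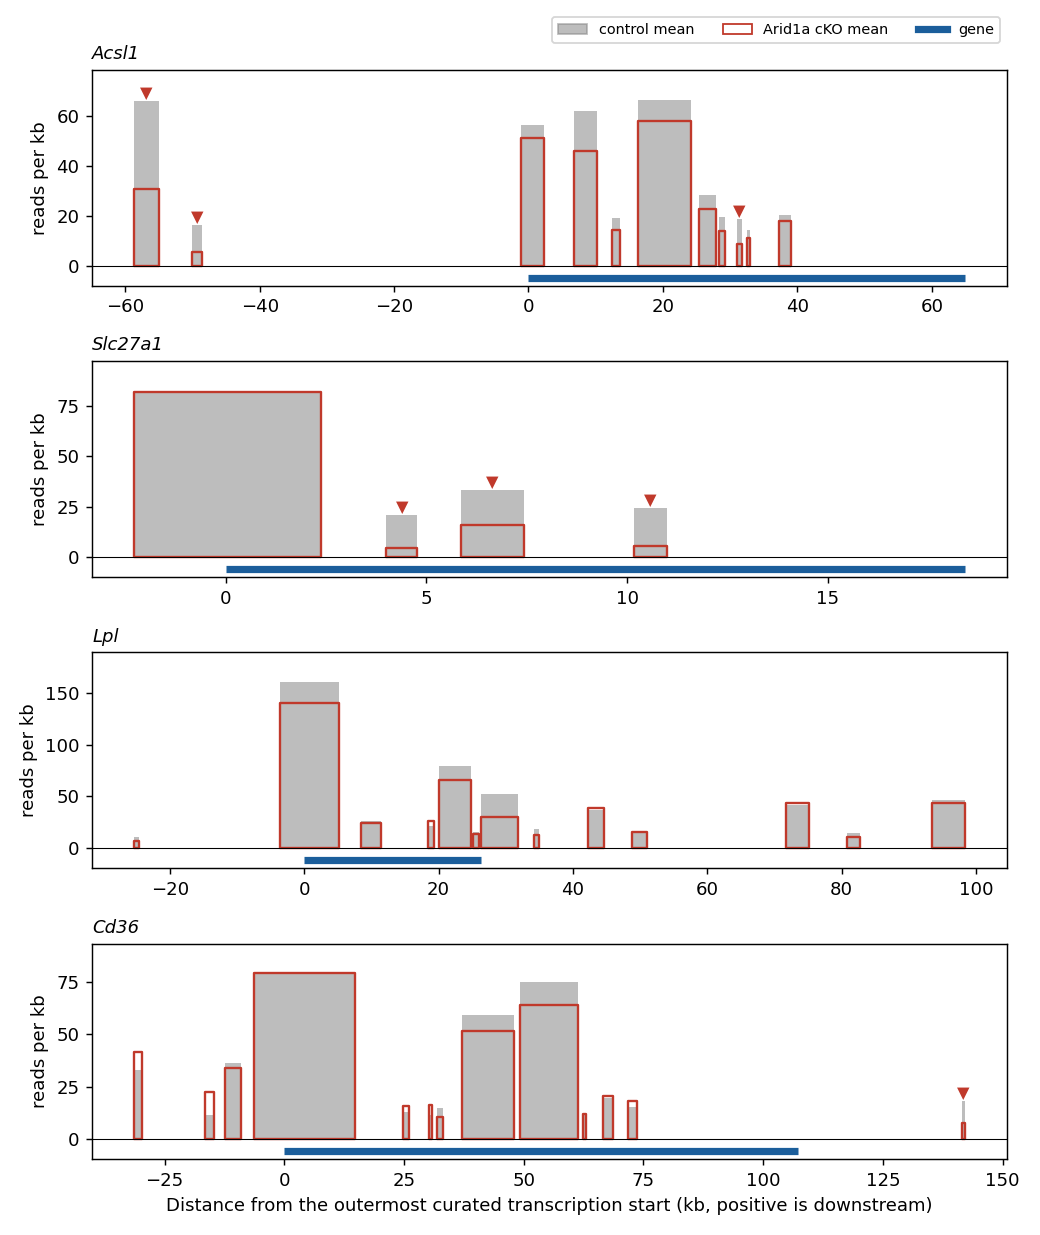
Mean H3K27Ac in control (grey) and *Arid1a cKO* (red outline) at *Acsl1*, *Slc27a1*, *Lpl* and *Cd36*, as normalized reads per kb of peak width (vertical axis) against distance from the outermost transcription start in kb (horizontal axis, to scale within each gene). Blue bars mark the genes and red triangles peaks at least 2-fold lower. The distal *Acsl1* peak is lower from 247 to 115 reads and 3 peaks of *Slc27a1* are lower beside a promoter of 383 and 380 reads.

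Of the other peaks, 12 at 8 genes belonged to the strongest 25% of all peaks, with differences from -1.11 to 0.19 and a median of -0.12. Over all 4768 other peaks of that strength the median was -0.03. *Lpl* held 4 of the 12. The peak at chr8:68906810-68912419, which begins at the 3' end of the gene, had 292 reads in control and 169 in *Arid1a cKO* (-0.79), and an intronic peak had 375 and 311 (-0.27). The *Lpl* peaks further downstream differed less, with 145 and 153 reads (0.08) at 73.4 kb and 228 and 217 (-0.07) at 96.0 kb, the peak that holds the DR1 letters shown above.

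*Acacb* had 419 and 304 reads (-0.46) at a 7.28 kb intronic peak that holds the ESRR letters shown above, and its 6 weaker peaks ran from -0.70 to 0.69. The strongest other peak of the members was centred 9.35 kb upstream of *Ucp3*, in an intron of *C2cd3*. It was nearly equal in the means, at 765 and 755 reads (-0.02). So was an intronic peak of *Acot13*, with 223 and 218 (-0.03). *Acaa2* had 204 and 182 reads (-0.16) at a peak 31.1 kb downstream of its start. Higher in *Arid1a cKO* were the *Hadh* peak of 231 and 260 reads and a *Fabp3* peak of 191 and 218 (0.19), centred in an intron of *Zcchc17*. *Acadm* had a less strong intronic peak with 135 and 83.9 reads (-0.69), and its summed difference was -0.34.

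By role, and beside the 13.8% of all other peaks that were at least 2-fold lower, activation held 5 of 11 such peaks, and all 11 were below 0. Uptake held 5 of 27, with 1 higher, and the spiral 1 of 10. The carnitine shuttle (5 other peaks), unsaturated fatty acid enzymes (3) and control genes (10) held 0. Peaks of 1 gene are not independent of each other, and 9 of the 11 activation peaks belong to *Acsl1*. Summed over all its peaks, H3K27Ac was lower in *Arid1a cKO* at 25 of 32 genes (78.1%) and higher at 7, from -0.39 to 0.40 with a median of -0.08. Over all 15761 genes nearest to a peak, 49.9% were lower. These shares were not matched for strength, and strong promoters leaned downwards in general. Among promoter peaks in the strongest 10% of all peaks, 61.6% were lower.

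The wider pathway was followed in 51 further genes of lipid uptake, storage and oxidation, of which 45 were nearest to 104 peaks. Their 45 promoter peaks had a median difference of 0.00 and 0 passed 2-fold in either direction. These promoters were weaker than those of the members, with a median of 177 control reads beside 528, so the medians are not matched for strength. Of 59 other peaks, 9 were at least 2-fold lower and 3 at least 2-fold higher, which is near the 13.8% and 5.78% of all other peaks and no result about the pathway. The largest single difference was 44.1 kb from the start of *Ehhadh*, the peroxisomal bifunctional enzyme, with 114 reads in control and 11.9 in *Arid1a cKO* (-3.26). Next came an intronic peak of *Acot7*, an acyl-CoA thioesterase, with 180 and 21.9 reads (-3.04), and a peak 139 kb upstream of *Vldlr*, the very low density lipoprotein receptor, with 75.1 and 18.9 (-1.99). The other lower peaks were of *Abcd2*, *Acaca*, *Acot11*, *G0s2*, *Hsd17b4* and *Pccb*, from -1.49 to -1.02. *Pccb*, *Slc27a6* and *Vldlr* each had a peak that was higher, from 1.19 to 1.32, with 8.0 or fewer control reads.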

How the data were processed

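H3K27Ac ChIP-Seq and input libraries were made from P7 ventricles of 2 control and 2 *Arid1a cKO* animals. Per the submitters' processing notes and the methods, reads were aligned by the authors to mm10 (BWA 0.7.17-r1188). Peaks came from HOMER findPeaks in histone style (4.11 in the notes) with all inputs merged as background, and those present in at least 2 samples were compared by the authors with DESeq2 1.24.0 through DiffBind 2.12.0. The deposited table gives, on a log2 scale, the mean normalized reads of each peak over all samples and in each group, rounded to 0.01. Its columns of fold change, p-value and FDR are the authors' own comparison and were not used. It holds 0 per-sample columns, so no test, interval or depth could be computed. How the input entered the normalized reads is not given in the sources used here.

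Peaks were joined to 45756 curated RefSeq transcripts of GRCm38 by the transcription start nearest to the centre. The last peak of 21 of 21 chromosomes was checked to lie inside the reference, and 7 of 45987 peaks on unplaced sequences were left out. A group mean of 3 reads or fewer was treated as a floor. All 35 members, every member promoter peak and every other peak at least 2-fold apart are named. Of the pathway list, only genes with such a peak are named. Strong peaks below 2-fold, single markers and motif sites were picked after their values were seen. The members and lists were chosen with earlier results of these data known. The joining of peaks to starts was checked against a direct search at real peak positions. Known differences added to the control means were read back, which checks only the subtraction and its rounding. The promoter split and the counts were not tested in this way. Alternatives covered the promoter definition, transcripts, distance, centring, low peaks, offset, fold and summary. Python 3.11.15 was used with numpy 2.4.6, pandas 2.3.3, pysam 0.24.0 and matplotlib 3.10.9.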

Additional observations from a re-analysis of the deposited data

How the results depend on the processing

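The table gives group means only, so leaving out a replicate was not possible, and neither a difference nor its absence can be set against replicate error. No paired analysis was possible because the columns carry no replicate numbers and no result comes from a test. The median of member promoter peaks stayed between -0.08 and -0.06 under every alternative tried for it. The limit of 50 kb and the removal of weak peaks kept the same 34 promoter peaks, so those settings could not move it. Leaving out the weakest 25% of peaks changed most: other peaks then had a median of -0.07, and the peaks at least 2-fold lower were 2, at 2 genes. The median of other peaks was -0.09 when taken over genes. The single peak at least 2-fold higher became 2 with coding transcripts only, 0 when centred on the median of all peaks, 0 on log2 of reads plus 3, and 3 at 1.5-fold. At 1.5-fold, 14 peaks were lower, where over all peaks 17.3% were lower and 5528 of 45980 higher. Lower peaks numbered 14 of 113 with coding transcripts only, 9 of 93 within 50 kb and 8 of 100 on log2 of reads plus 3. The shares over all peaks were not computed under these settings, so the counts are no result about the members. With promoters defined by a peak centre that lies no more than 1000 bp before or 100 bp after a start, 8 peaks were left and 6 of them were below 0. Centring on all peaks or on strong promoter peaks, both chosen after seeing the data, gave 27 and 24 of 34 promoter peaks below 0. The share of all promoter peaks below 0 was not computed under that promoter definition or these centrings. ESRR letters were found in 12 member peaks when whole peaks were searched in place of their central 300 bases, also chosen after seeing the data. For the summed reads of single genes, the difference moved by over 0.05 at 6 genes when only peaks covering a start were summed, *Acsl1* among them (-0.18), and at 10 when the median of a gene's peaks was taken. That median turned *Acsl3* from 0.06 to -0.80 and *Acsl4* from 0.12 to -1.04, since each has 1 promoter peak and 1 weak distal peak. The median over genes was -0.06 and -0.11.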
